A study of Zygosaccharomyces parabailii with 12 samples.

Results

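The genes described here are the 13 protein-coding genes of the mitochondrial genome of Zygosaccharomyces parabailii, taken as every row of the count table whose identifier starts with ZPARMT. They are 13 of the 10085 protein-coding genes counted. The strain, ATCC60483, is a hybrid yeast that tolerates weak acids and carries most nuclear genes as a pair of copies from different parents, whereas each mitochondrial gene is present once in the table. All cultures were microaerobic batch bioreactor fermentations in Verduyn medium at pH 3. The groups were lactic acid at 42 h (LA42, after the diauxic shift), control at 42 h (C42), lactic acid at 18 h (LA18, exponential phase) and control at 18 h (C18), where lactic acid means 40 g liter-1 in the medium and control means none. Each group had 3 rRNA-depleted RNA-seq libraries from samples taken in triplicate during the fermentation, so the spread between them, and every p-value below, may be technical. Replicate 2 of C18 held 4606 counts and was left out, which leaves n = 2 in C18 and n = 3 in each other group. The 11 libraries kept had 8979873 to 17565769 counts, of which 144963 to 533786 fell on mitochondrial genes.

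A yeast mitochondrial genome is a small remnant of a bacterial one. It is known to encode mainly a few core subunits of the respiratory chain and of the ATP synthase, together with the ribosomal and transfer RNAs needed to translate them, while most mitochondrial proteins are made from nuclear genes. In Saccharomyces cerevisiae it also encodes a ribosomal protein and, inside introns, proteins that act on RNA or DNA. In that yeast it is transcribed by a dedicated RNA polymerase as long RNAs that are cut into smaller ones, and its mRNAs carry no poly(A) tail, so they are kept in libraries made by rRNA depletion. Respiration is repressed there while glucose is plentiful and increases after the diauxic shift.

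In the assembly ASM198439v2 of the same strain, the mitochondrial contig (MT) holds 35 annotated genes, namely 13 protein-coding, 2 rRNA and 20 tRNA genes, and only the protein-coding ones are rows of the table. None of the 13 has a gene name in the sources used here, so they are given by identifier and position, with no role. ZPARMT0001 lies at 768 to 1496, ZPARMT0003 at 2042 to 3199, and ZPARMT0017 at 10731 to 11450, inside the span of the rRNA gene ZPARMT0016 (7940 to 11994). Next come 5 annotated genes that all start at 13289, namely ZPARMT0020, ZPARMT0021, ZPARMT0022, ZPARMT023 and ZPARMT0019, which end at 14566, 16775, 18305, 20364 and 21220. They are followed by ZPARMT024 (22179 to 22325), ZPARMT025 (22721 to 23500), ZPARMT029 (24790 to 25995), ZPARMT030 (26568 to 26798) and ZPARMT034 (29133 to 29942). Reads that overlap more than 1 gene are discarded by the counting program. By these spans each shorter gene of the 5 with a common start lies wholly inside the longer ones. Yet ZPARMT0020, the shortest, had 357 to 1424 counts per library, so the spans do not show which stretches were counted. These stretches were not determined, and no level per length can be given for the 5 genes.

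Transcript levels differed widely among the genes. CPM values (counts relative to the library total), scaled between libraries by the TMM method, were divided by gene length for the 8 genes that share no start. Averaged over the 11 libraries, the level per length was 37445 CPM per kb for ZPARMT030, 8409 for ZPARMT034, 6049 for ZPARMT0003, 3372 for ZPARMT0001 and 1909 for ZPARMT024. ZPARMT0017, ZPARMT025 and ZPARMT029 were far lower, at 279, 235 and 6.78 CPM per kb. Since ZPARMT0017 lies inside the span of an rRNA gene, its counts may include RNA of that gene, which was not tested. ZPARMT0003, ZPARMT030 and ZPARMT034 together took 82.0% to 88.4% of the mitochondrial counts in every library, and 92.3% to 96.3% with ZPARMT0001 added. All 13 genes passed the filter on low values, but ZPARMT0022 had only 6 to 35 counts, ZPARMT023 2 to 122 and ZPARMT029 35 to 173 counts per library.

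Mitochondrial transcripts took a larger share of the counts in lactic acid than in control at both times. At 42 h the summed share of the 13 genes was 3.31%, 4.66% and 3.73% in the LA42 libraries, against 2.07%, 1.62% and 2.39% in C42. At 18 h it was 2.78%, 2.81% and 2.76% in LA18, against 1.38% and 0.935% in C18. No 2 of these groups overlapped. The means were 3.90% ± 0.693 in LA42 and 2.02% ± 0.388 in C42 (SD, n = 3 each), a ratio of 1.93. At 18 h they were 2.78% ± 0.0254 in LA18 (SD, n = 3) and 1.16% ± 0.318 in C18 (SD, n = 2), a ratio of 2.40. Between times the share was 1.40 times as high in LA42 as in LA18 and 1.75 times as high in C42 as in C18. These shares were taken without TMM factors. With TMM scaling the summed level averaged 44200 CPM in LA42, 18392 in C42, 25634 in LA18 and 12523 in C18. The ratio of lactic acid to control was then larger at 42 h than at 18 h, unlike that of the shares. The ratio between times was then larger in lactic acid than in control, also unlike the shares, and C42 and C18 overlapped. The LA18 libraries lay very close together, whereas C18 and both groups at 42 h spread more. The share is a sum over chosen genes and was not tested. In such bulk samples, a change in the number of mitochondria per cell, in the RNA per mitochondrion and in the amount of nuclear RNA cannot be told apart.

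**Figure D1:**
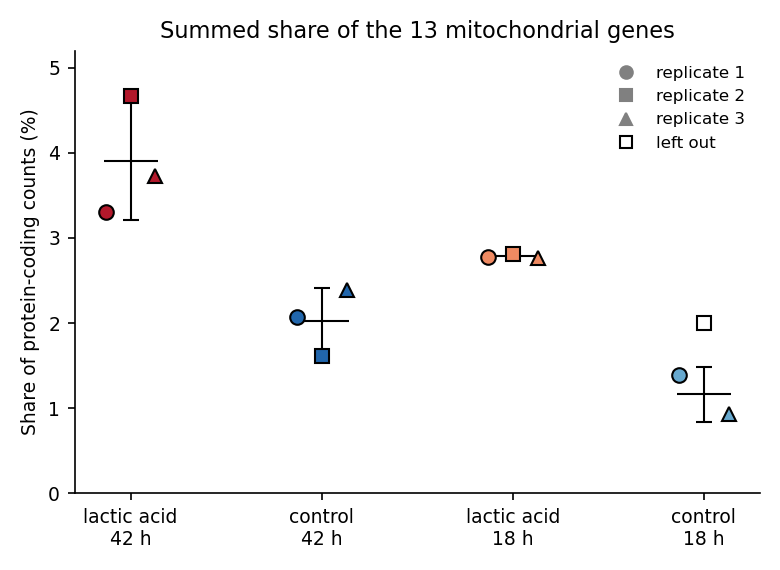
Summed share of the 13 mitochondrial genes in the protein-coding counts of each library (y axis, percent) for the 4 groups, with symbols for replicate numbers and lines for the mean ± SD of the libraries kept. The LA42 libraries (3.31% to 4.66%) lie above C42 (1.62% to 2.39%) and the LA18 libraries (2.76% to 2.81%) above C18 (0.935% and 1.38%). The open square is the C18 library that was left out.

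The 4 most abundant genes were all higher in lactic acid at 42 h. ZPARMT030 had 12132, 14896 and 15822 CPM in LA42, against 4616, 4265 and 4731 CPM in C42. ZPARMT034 had 13412, 16668 and 11786 CPM in LA42, against 5073, 4012 and 6551 CPM in C42. For both genes the lowest LA42 library was well above the highest C42 library. By edgeR's quasi-likelihood test, with Benjamini-Hochberg adjustment over all 9683 genes tested, the log2 fold change was 1.65 ± 0.204 for ZPARMT030 (approximate SE, adjusted p = 3.81e-05) and 1.42 ± 0.224 for ZPARMT034 (adjusted p = 0.000208). ZPARMT0001 had 3525, 3920.5 and 3808 CPM in LA42, against 1431, 1369.9 and 1829 CPM in C42, a log2 fold change of 1.28 ± 0.197 (adjusted p = 0.000177). ZPARMT0003 had 9947, 11964 and 8569 CPM in LA42, against 7074, 4353 and 6766 CPM in C42, and its log2 fold change of 0.74 ± 0.248 (adjusted p = 0.0213) was the smallest of the 4. The groups did not overlap for any of these genes.

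Of the less abundant genes, ZPARMT024 had 394, 365 and 463 CPM in LA42, against 194, 158 and 179 CPM in C42, a log2 fold change of 1.20 ± 0.148 (edgeR adjusted p = 3.81e-05). ZPARMT0019, the longest of the genes with a common start, had 834, 1054 and 816 CPM in LA42, against 313, 308 and 596 CPM in C42, and its log2 fold change was 1.15 ± 0.252. ZPARMT029 was higher by 1.36 ± 0.284 on 35 to 134 counts per library at 42 h. These genes therefore rose with the abundant ones, and again no groups overlapped. ZPARMT0021 (0.64 ± 0.216, edgeR adjusted p = 0.0220) and ZPARMT0020 (0.54 ± 0.214, adjusted p = 0.0450) passed the threshold more narrowly, and the LA42 and C42 libraries of ZPARMT0020 overlapped.

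In LA42 against C42, 9 of the 13 genes were thus higher at an edgeR adjusted p below 0.05 and 0 lower (also 0 at an unadjusted p below 0.05, by limma-voom and by DESeq2), where 28.2% of all 9683 genes were higher and 33.2% lower. A change of at least 2-fold was reached by 6 of the 13 (ZPARMT0001, ZPARMT0019, ZPARMT024, ZPARMT029, ZPARMT030 and ZPARMT034), against 7.05% of all genes. The groups did not overlap, with LA42 above C42, for 8 of the 13 and for 30.2% of all genes. The median log2 fold change was 1.15 over the 13 genes and -0.06 over all genes. The count of 9 fell to 6 without C42 replicate 2 or without LA42 replicate 2, when ZPARMT0003, ZPARMT0020 and ZPARMT0021 no longer passed, and was 11 without C42 replicate 3. ZPARMT0020 and ZPARMT0021 were lost without C42 replicate 1 too, and ZPARMT0020 also without LA42 replicate 3 or any 1 LA18 library.

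At 18 h the same 4 abundant genes were again higher in lactic acid. ZPARMT030 had 9319.6, 10116 and 10051 CPM in LA18, against 5663 and 3537 CPM in C18, a log2 fold change of 1.1 ± 0.230 (edgeR adjusted p = 0.00125). ZPARMT0001 had 2815, 2953 and 2775 CPM in LA18, against 1639.6 and 973 CPM in C18, with 1.12 ± 0.224 (adjusted p = 0.000888). ZPARMT034 had 4780.4, 4457 and 4034 CPM in LA18, against 2386 and 1768 CPM in C18, with 1.09 ± 0.254 (adjusted p = 0.00243). In each case the LA18 libraries were alike and both C18 libraries were lower, C18 replicate 3 most. ZPARMT0003 had 7711, 6894 and 6562 CPM in LA18, against 4554 and 2659 CPM in C18, with 0.97 ± 0.285 (adjusted p = 0.00952). ZPARMT024 had 366, 317 and 283 CPM in LA18, against 206 and 162 CPM in C18, with 0.81 ± 0.167 (adjusted p = 0.00113).

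In LA18 against C18, 8 of the 13 genes were higher by edgeR and 0 lower (also 0 at an unadjusted p below 0.05, by limma-voom and by DESeq2), where 35.5% of all genes were higher and 35.2% lower. Besides those above they were ZPARMT0019 (0.91 ± 0.286), ZPARMT029 (0.87 ± 0.292) and ZPARMT0020 (0.62 ± 0.237). A 2-fold change was reached by 3 of the 13, ZPARMT0001, ZPARMT030 and ZPARMT034, against 4.25% of all genes. The groups did not overlap, with LA18 above C18, for 9 of the 13 and for 42.7% of all genes. The median log2 fold change was 0.81 over the 13 genes and 0.07 over all genes. The count rests in part on C18 replicate 3: without it 4 of the 8 remained (ZPARMT0001, ZPARMT024, ZPARMT030 and ZPARMT034), and ZPARMT0003, ZPARMT0019, ZPARMT0020 and ZPARMT029 did not pass. Without C18 replicate 1 all 8 remained. ZPARMT0020 was also lost without LA18 replicate 1 or 3, and ZPARMT029 without LA18 replicate 3.

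**Figure D2:**
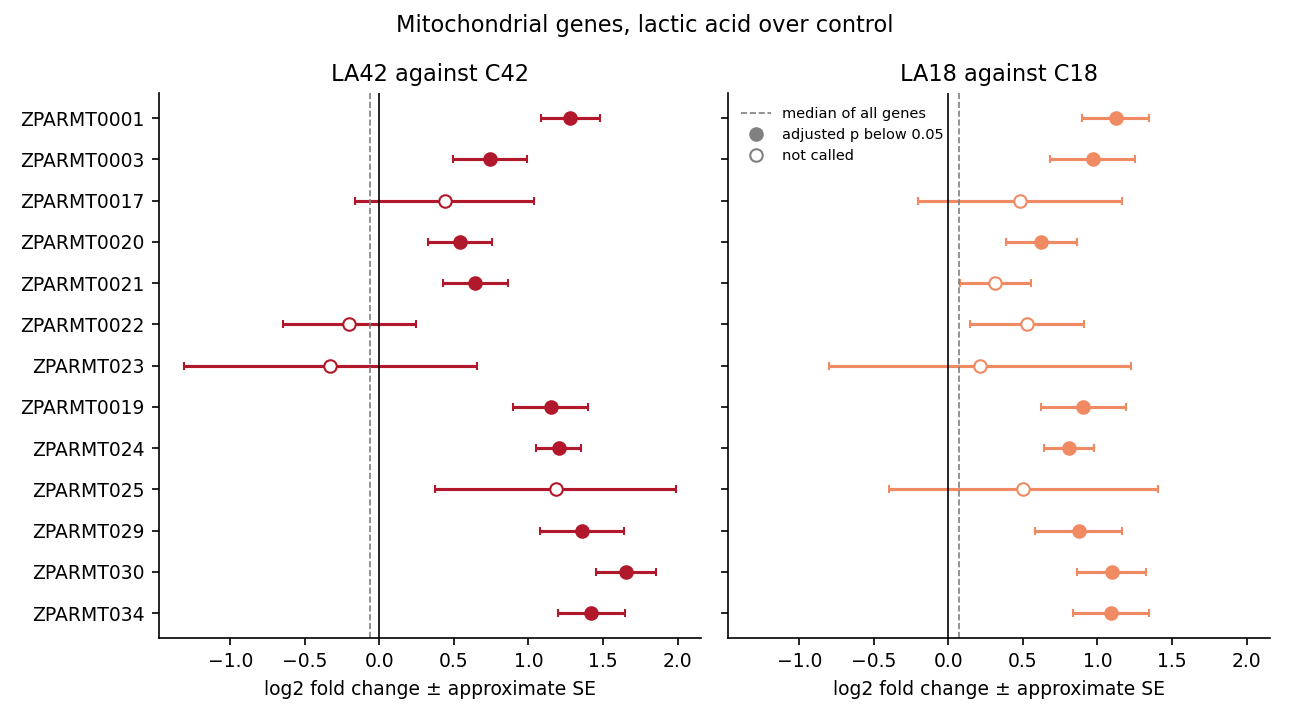
The log2 fold change of each mitochondrial gene, lactic acid over control, with its approximate SE (x axis), at 42 h (left) and 18 h (right). Filled points are called at an adjusted p below 0.05, 9 of 13 at 42 h and 8 of 13 at 18 h, and the dashed line is the median of all genes tested (-0.06 and 0.07).

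Gene length moved with these values at 18 h. The 4733 nuclear genes with spans like those of the mitochondrial genes that overlap no other gene (147 to 1206 bases) had a median log2 fold change of 0.42 in LA18 against C18 and 0.06 in LA42 against C42. An alternative, added after the data were seen, removed from every library a smooth trend with gene length fitted on nuclear genes, and tested the 8 genes with a length of their own. At 18 h it gave log2 fold changes of 0.47 for ZPARMT030, 0.74 for ZPARMT0001, 0.75 for ZPARMT034, 0.87 for ZPARMT0003 and 0.82 for ZPARMT029, all still called by edgeR (adjusted p = 0.0254, 0.00695, 0.0151, 0.0149 and 0.0283). None of them reached 2-fold, and ZPARMT024, the shortest gene, no longer passed, with 0.13 (adjusted p = 0.451). At 42 h all 6 of these genes stayed higher, with 1.46 for ZPARMT030 and 0.91 for ZPARMT024. What part of the changes at 18 h goes with length was not tested further.

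The lactic acid response did not pass a test of difference between the times for any of the 13 genes (edgeR interaction, 0 of 13 at an adjusted p below 0.05 and 0 at an unadjusted p below 0.05, and 0 by limma-voom and by DESeq2), whereas 28.9% of all genes had a more positive and 24.9% a more negative response at 42 h. ZPARMT030 came closest, with an interaction of 0.56 ± 0.297 on the log2 scale (adjusted p = 0.131), followed by ZPARMT024 with 0.39 ± 0.219 (adjusted p = 0.147). With the length trend removed both passed, at 1.0 (adjusted p = 0.00248) and 0.78 (adjusted p = 0.00485), meaning a larger response at 42 h than at 18 h. Without C18 replicate 3, ZPARMT030 alone passed, at 0.86 (adjusted p = 0.0332).

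**Figure D3:**
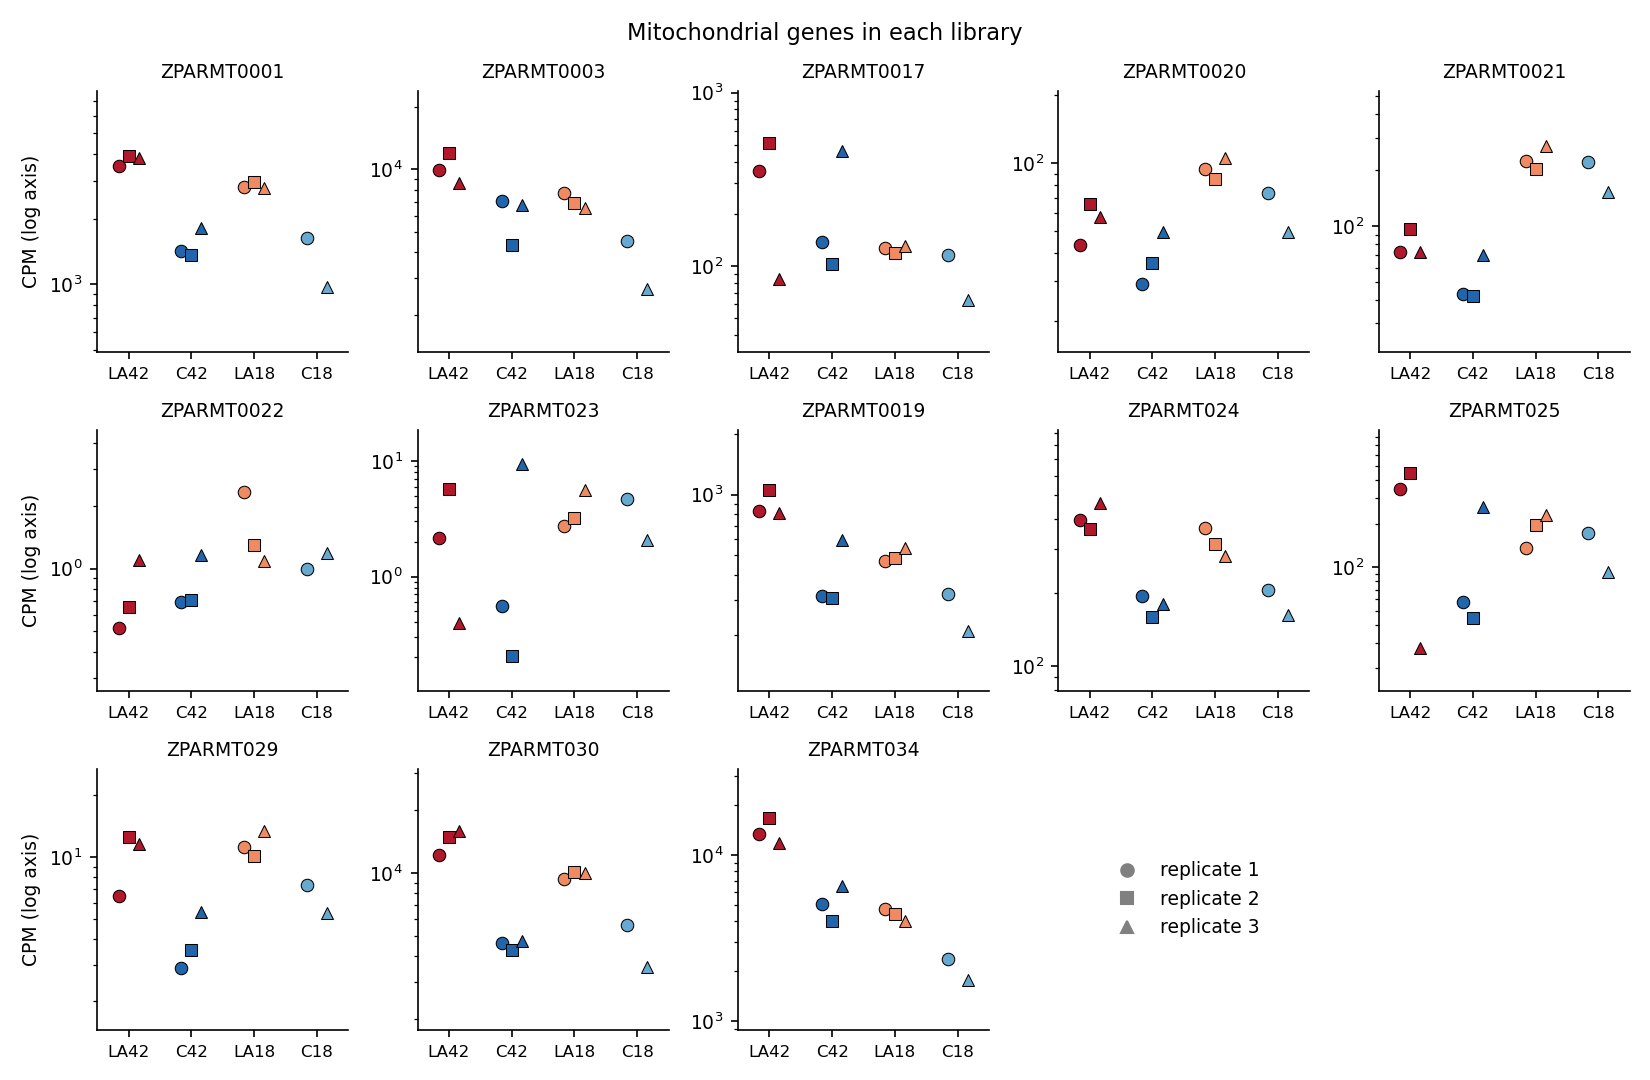
CPM of each of the 13 mitochondrial genes in every library kept (y axis, log scale), in the order LA42, C42, LA18, C18, with symbols for replicate numbers. ZPARMT0001, ZPARMT030 and ZPARMT034 are higher in every lactic acid library than in any control library of the same time, while in ZPARMT0017, ZPARMT023 and ZPARMT025 the triangle of C42 is high and that of LA42 is low.

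Between the times the genes did not move together. ZPARMT034 had the largest increase among the called genes in each medium: the CPM given above for LA42 lie far above those for LA18, with a log2 fold change of 1.66 ± 0.225 (edgeR adjusted p = 2.18e-05), and those of C42 lie above those of C18, with 1.33 ± 0.257 (adjusted p = 0.000583). It took 31.5% ± 2.68 of the mitochondrial counts in LA42 and 17.2% ± 1.11 in LA18 (SD, n = 3 each), and 28.2% ± 2.0 in C42 (n = 3) and 16.9% ± 1.94 in C18 (n = 2). ZPARMT030 was higher in LA42 than in LA18, by 0.54 ± 0.199 (adjusted p = 0.0244), and averaged 4537 ± 242 CPM in C42 and 4600 ± 1503 CPM in C18, with no call. ZPARMT0003 was higher in C42 than in C18, by 0.75 ± 0.283 (adjusted p = 0.0320), although 1 C42 library lay below the higher C18 library. ZPARMT0019 (0.85 ± 0.250, adjusted p = 0.00722) and ZPARMT024 (0.34 ± 0.146, adjusted p = 0.0471) were also higher in LA42 than in LA18.

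Against this, the CPM of ZPARMT0021 and ZPARMT0020, which cover only the stretches counted, were lower at 42 h with and without lactic acid. ZPARMT0021 had 73.1, 96.2 and 72.8 CPM in LA42, against 225, 203 and 268 CPM in LA18, and 43.0, 42.1 and 69.8 CPM in C42, against 220.5 and 153 CPM in C18. The libraries of the times did not overlap in either medium. How many of all genes separate in this way between the times is not given here. By edgeR the log2 fold change was -1.52 ± 0.217 (adjusted p = 3.25e-05) in LA42 against LA18 and -1.85 ± 0.236 (adjusted p = 2.14e-05) in C42 against C18. ZPARMT0020 changed by -0.77 ± 0.211 (adjusted p = 0.00460) and -0.69 ± 0.234 (adjusted p = 0.0197) in the same comparisons. ZPARMT0022 had 6, 7 and 11 counts in LA42, against 35, 19 and 14 counts in LA18. It passed the filter on low values only through the lactic acid libraries, mainly those of LA18, and its highest LA42 library lay just above its lowest LA18 library in CPM, so its call as lower in LA42 is not used as a result.

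Altogether 4 of the 13 genes were higher and 3, ZPARMT0022 included, lower in LA42 against LA18, where 41.4% of all genes were higher and 41.9% lower, and in C42 against C18, 2 were higher and 2 lower, where 31.2% of all genes were higher and 39.1% lower. These numbers of calls lie below the shares of all genes. Several of the smaller calls depend on a single library. In C42 against C18, ZPARMT0003 did not pass without C42 replicate 1, without C42 replicate 3 or without C18 replicate 3, and ZPARMT0020 did not pass without C18 replicate 1, C42 replicate 1 or C42 replicate 2. In LA42 against LA18, ZPARMT030 did not pass when LA18 replicate 1 or 2 or LA42 replicate 2 or 3 was left out alone. There ZPARMT0022 was lost without LA18 replicate 1 or LA42 replicate 1 or 2, and ZPARMT024 without any 1 of 7 libraries, among them LA18 replicates 2 and 3 and LA42 replicate 3. Nuclear genes of like span had a median log2 fold change of -0.36 in LA42 against LA18, and with the length trend removed ZPARMT030 had 0.96 (edgeR adjusted p = 4.77e-05) and ZPARMT024 0.55 (adjusted p = 0.00140), while ZPARMT0001 (0.73, adjusted p = 0.00200) and ZPARMT0017 (1.70, adjusted p = 0.0228) were called too. ZPARMT034 and ZPARMT0021 passed in both comparisons under each omission.

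Genes that share the start at 13289 were thus called in opposite directions in LA42 against LA18, ZPARMT0019 as higher and ZPARMT0020 and ZPARMT0021 as lower. In C42 against C18 ZPARMT0019 was not called (0.61 ± 0.283, edgeR adjusted p = 0.0736), and in LA42 against C42 all 3 were higher. For every 100 counts of ZPARMT0019, ZPARMT0021 had 8.94 ± 0.183 counts in LA42 and 46.4 ± 4.02 in LA18 (SD, n = 3 each), and 13 ± 1.16 in C42 (n = 3) and 70.4 ± 2.57 in C18 (n = 2). ZPARMT0020 had 6.17 ± 0.929 in LA42 and 19.0 ± 1.35 in LA18, and 9.77 ± 1.78 in C42 and 23.2 ± 0.356 in C18. Both ratios were lower in lactic acid than in control at each time and lower at 42 h than at 18 h, and in none of these 4 comparisons did the libraries of the groups overlap, for either gene. ZPARMT0022 and ZPARMT023 had fewer than 2 counts per 100 of ZPARMT0019 in every library. Because reads on more than 1 gene are discarded and the stretches counted were not determined, the ratios compare regions of the locus and not full transcripts.

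**Figure D4:**
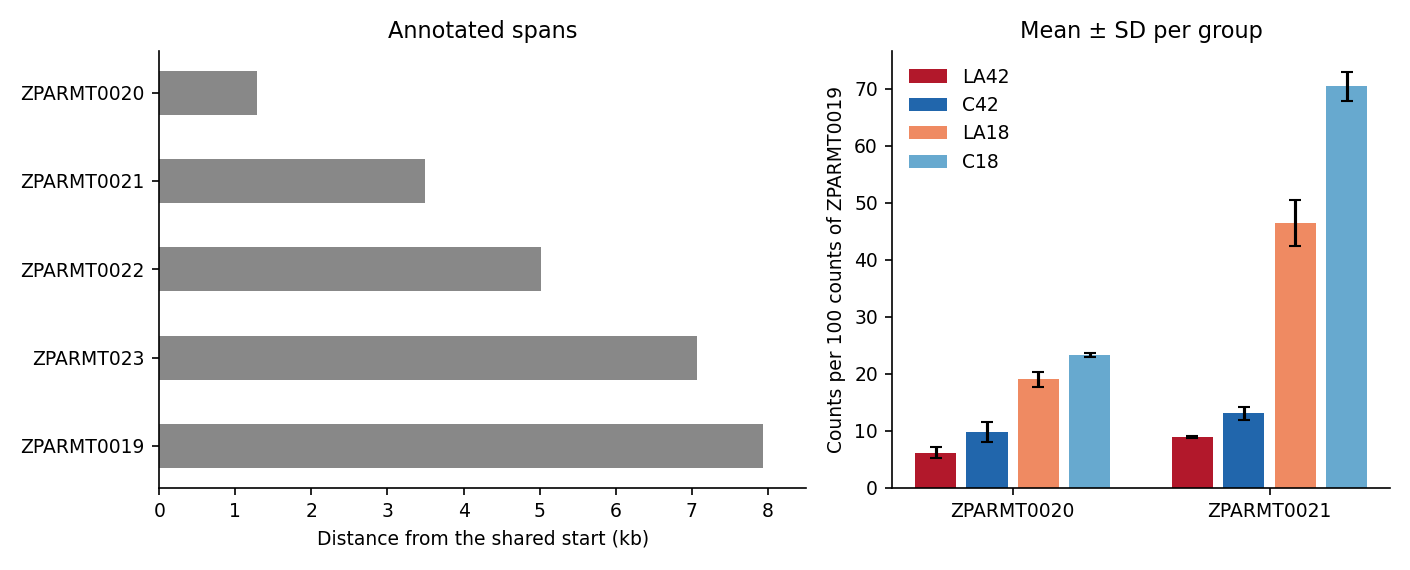
Left, the annotated spans of the 5 genes with a common start, as distance from that start (x axis, kb). Right, counts of ZPARMT0020 and ZPARMT0021 per 100 counts of ZPARMT0019 (bars, mean ± SD over libraries, in the order LA42, C42, LA18, C18), which for ZPARMT0021 were 8.94 in LA42, 13 in C42, 46.4 in LA18 and 70.4 in C18.

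ZPARMT0017, ZPARMT025 and ZPARMT023 were called in no comparison, and at 42 h their libraries lay far apart within each group. ZPARMT025 had 348, 449 and 27.9 CPM in LA42 replicates 1, 2 and 3, against 57.6, 45.0 and 260.3 CPM in C42. ZPARMT0017 had 354, 514 and 84.2 CPM in LA42, against 138, 103 and 461 CPM in C42. ZPARMT023 had 25, 61 and 4 counts in LA42, against 8, 2 and 122 counts in C42. In all 3 genes LA42 replicate 3 was the lowest of its group and C42 replicate 3 the highest. C42 replicate 3 was also the highest C42 library for the other 4 genes with a common start, with 596 CPM of ZPARMT0019 as given above, and with 49.3 CPM of ZPARMT0020 it lay above LA42 replicate 1, which had 43.4 CPM. At 18 h the libraries of ZPARMT0017 were closer, with 119 to 130.0 CPM in LA18 and 63.6 and 116 CPM in C18. The 3 genes are not neighbours on the contig, since ZPARMT024 lies between ZPARMT023 and ZPARMT025, and ZPARMT0017 lies inside an rRNA gene. An alternative added after the data were seen left out LA42 replicate 3 and C42 replicate 3. The log2 fold changes in LA42 against C42 were then 1.84 for ZPARMT0017, 2.95 for ZPARMT025 and 3.22 for ZPARMT023. ZPARMT025 was called without either library alone (1.70 without LA42 replicate 3 and 2.42 without C42 replicate 3). These libraries hold the values of the 3 genes that go most against a higher level in LA42. The increases therefore follow from the omission and are not used as a result. Between times, ZPARMT0017 had a log2 fold change of 1.34 ± 0.612 in LA42 against LA18 (edgeR adjusted p = 0.0591) and 1.38 ± 0.707 in C42 against C18 (adjusted p = 0.0991), and some alternatives called it higher at 42 h. Which libraries are the exception cannot be told apart with 3 per group.

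Nuclear genes whose products work with the mitochondrially encoded proteins were taken from lists of S. cerevisiae gene names, of which only a part could be matched to genes here. For complex III 1 of 9 names was found, for complex IV 2 of 9 and for the ATP synthase 7 of 16. A name often stands for 2 copies from different parents, so the values do not describe whole complexes. Of all 9683 genes, 28.2% were higher and 33.2% lower in LA42 against C42, and 35.5% and 35.2% in LA18 against C18. These shares apply to the genes of all these lists too. None of the lists was corrected for gene length. At 18 h nuclear genes of 147 to 1206 bases had a median log2 fold change of 0.42, so values of lists at 18 h may in part go with length, which was not tested. For the subunits of the respiratory complexes, both genes found for complex III (QCR9) and all 4 found for complex IV were higher in lactic acid at each time, and so were all 12 of the ATP synthase. Median log2 fold changes at 42 h and 18 h were 1.56 and 1.42 for complex III, 1.18 and 1.22 for complex IV, and 0.84 and 1.57 for the ATP synthase. For example, ZPAR0B03140_A (COX7, a subunit of cytochrome c oxidase) averaged 729 CPM in LA42 and 245 CPM in C42, a log2 fold change of 1.57 ± 0.171. ZPAR0A04560_B (ATP4, of the stator stalk of the ATP synthase) averaged 505 CPM in LA18 and 133 CPM in C18, with 1.93 ± 0.194. With library totals in place of TMM factors, 8 of the 12 ATP synthase genes were higher at 42 h, where 1361 of all 9683 genes were. For complex II, the NADH dehydrogenases and cytochrome c, 4 of the 8 genes were higher in LA42 against C42, and 2 were higher and 4 lower in LA18 against C18. ZPAR0A01390_B (NDE2/NDE1, an external NADH dehydrogenase) averaged 1809 CPM in LA42 and 376 CPM in C42, a log2 fold change of 2.27 ± 0.346, and ZPAR0B08720_A (SDH1, a subunit of succinate dehydrogenase) had -1.96 ± 0.379 in LA18 against C18.

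Other lists held genes that act on the mitochondrial genome and its RNA. Of 7 genes for maintenance of mitochondrial DNA, 1 was lower in LA42 against C42 and the rest did not pass, and 2 were higher and 1 lower in LA18 against C18. The genes for its polymerase, MIP1, averaged 49.6 and 48.9 CPM in LA42 (ZPAR0F00310_A and ZPAR0A00970_B), against 53.5 and 51.3 CPM in C42. For transcription and RNA processing, 8 of 13 genes were higher and 2 lower in LA42 against C42, and 6 were higher and 3 lower in LA18 against C18. ZPAR0A09570_B (PET127, for processing of mitochondrial RNA ends) averaged 335 CPM in LA42 and 92.9 CPM in C42, a log2 fold change of 1.85 ± 0.118, with 0.31 ± 0.133 (adjusted p = 0.0530) at 18 h.

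The last lists held the machinery that makes the proteins. Of 60 genes for the mitochondrial ribosome, 4 were higher and 30 lower in LA42 against C42, and 42 were higher and 7 lower in LA18 against C18. Their median log2 fold changes were -0.35 and 0.57. The count at 42 h was 6 higher and 26 lower with RLE scaling, and 46 lower with library totals. With library totals 1361 of all 9683 genes were higher and 4965 lower at 42 h, so list counts under that setting move with all genes. ZPAR0C07440_A (MRPS28, of the small subunit) averaged 20.9 CPM in LA42 and 36.8 CPM in C42 (-0.82 ± 0.155), and 147 CPM in LA18 and 87.9 CPM in C18 (0.74 ± 0.165). Of 30 translational activators and assembly factors, 10 were higher and 5 lower in LA42 against C42 (4 and 12 with library totals), and 23 were higher and 3 lower in LA18 against C18. The 10 higher at 42 h lie near the share of all genes. ZPAR0G03470_B (PET111, which in S. cerevisiae activates translation of a mitochondrial mRNA) averaged 80.8 CPM in LA18 and 59.1 CPM in C18, a log2 fold change of 0.45 ± 0.145.

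The nuclear genes whose levels most resembled the summed CPM of the 13 genes over the 11 libraries were ranked by Pearson's r of log2(CPM + 1), among 8827 genes with a mean of at least 10 CPM. The first was ZPAR0B01850_A (PHO80, a cyclin of phosphate signalling, chromosome 2, 357084 to 358238; r = 0.971), with 74.9 ± 6.85 CPM in LA42, 38.6 ± 1.80 in C42, 48.5 ± 2.59 in LA18 and 26.1 ± 1.0 in C18. Next came ZPAR0A05070_B (APS3, of a clathrin adaptor complex; r = 0.970), ZPAR0K01030_B (r = 0.967), ZPAR0A07220_B (r = 0.964) and ZPAR0O02860_A (r = 0.960). The 11 points fall into 4 groups and share library size and scaling, so these values only rank the genes.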

How the data were processed

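RNA was measured in 12 rRNA-depleted libraries. Reads were placed by the authors with Bowtie 1.1.2, allowing no mismatch, and assigned to genes with HTSeq 0.6.0, whose default settings discard reads on more than 1 gene. The deposited table holds the resulting raw counts as whole numbers. The version of SAMtools and the annotation of strand are not given in the sources used here. The authors' normalized tables and tables of duplicated genes were not used.

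Counts of 10085 protein-coding rows were used. Another 14 rows (pseudogenes and a plasmid gene) held 0.0575% to 0.344% of the counts and were left out. The 9683 genes reaching 1 CPM in 3 libraries of either medium were fitted in 1 model of the 4 groups with edgeR 4.0.16 (TMM, glmQLFit and glmQLFTest, two-sided) in R 4.3.3. Calls used a Benjamini-Hochberg adjusted p below 0.05, and for 2-fold calls also an absolute log2 fold change of 1. The approximate SE was obtained from the fold change (log2) and the F statistic, as their ratio after taking the root of F. TMM factors were 0.806 to 1.11. The fit was run on simulated data with a common spread for all genes, which checks the computation and not the calls reported here. Positions are from ASM198439v2. The base composition of genes was not analysed here, for want of a genome sequence.

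The members, gene lists, tests and alternatives were chosen with earlier results of these data known. The lists used 2884 genes with an S. cerevisiae name. All 13 genes are named, and for each list the examples come from its 2 genes with the highest mean CPM. Alternatives were limma-voom (limma 3.58.1), DESeq2 1.42.0, RLE factors, library totals, TMM on nuclear genes, no filter, a filter of 10 CPM, all 12 libraries, a replicate block and each library left out. Removal of the length trend (a spline with 5 degrees of freedom) and omission of 2 libraries together were added after the data were seen. A group left with 1 library was assumed to vary like the others. Intervals cover counting error only.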

Additional observations from a re-analysis of the deposited data

Results flagged for a closer look

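The library of C18 replicate 2, which entered no comparison, had 92 mitochondrial counts among 4596 protein-coding counts, a share of 2.0% (exact 95% binomial interval 1.62% to 2.45%). This lies above both C18 libraries that were kept, at 1.38% and 0.935%. Of the 13 genes, ZPARMT030 had 28 of these counts, ZPARMT0003 23, ZPARMT034 19 and ZPARMT0001 11, and 5 genes had none. With this library the mean share of C18 was 1.44%.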

How the results depend on the processing

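All 9 genes called higher in LA42 against C42 and all 8 in LA18 against C18 kept their direction under each alternative that could test them. With library totals in place of TMM, all genes together shifted to medians of -0.39 at 42 h and 0.28 at 18 h (log2), and calls among all genes at 42 h to 1361 higher and 4965 lower, and in the interaction to 1256 and 4630. ZPARMT0003, ZPARMT0020 and ZPARMT0021 were then lost at 42 h, and ZPARMT024 and ZPARMT030 in LA42 against LA18. With all 12 libraries ZPARMT0003 was lost in LA42 against C42 (0.82, adjusted p = 0.102), and ZPARMT024 and ZPARMT030 in LA42 against LA18 (adjusted p = 0.0837 and 0.242). DESeq2 did not call ZPARMT0022 in LA42 against LA18 (adjusted p = 0.0809). ZPARMT0017 was called higher in LA42 than in LA18 with RLE factors (1.40, adjusted p = 0.0432) and all 12 libraries (1.34, adjusted p = 0.0339), and in C42 than in C18 with library totals (1.64, adjusted p = 0.0317) and all 12 libraries (1.48, adjusted p = 0.0486). Library totals gave 4 mitochondrial genes higher and 1 lower in C42 against C18, and 2 higher in LA42 against LA18, where RLE factors gave 7. Leaving out a library gave 4 to 8 genes higher in LA18 against C18, 6 to 11 in LA42 against C42, 1 to 4 higher and 1 to 4 lower in C42 against C18, 2 to 6 higher in LA42 against LA18, and 0 to 1 in the interaction. Without C42 replicate 3 and LA42 replicate 3 together, 1 was higher and 5 lower in C42 against C18, and 4 passed in the interaction. That omission takes out the extreme values of ZPARMT0017, ZPARMT023 and ZPARMT025, so these calls are not used as results. Relative to filtered nuclear counts the share in LA18 was 2.86%.

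Direction turned only for genes without a call in the main fit. For ZPARMT023 the log2 fold change at 18 h lay between -0.31 and 0.85 with 1 library left out, negative without C18 replicate 3 or LA18 replicate 3 (-0.14). At 42 h it lay between -1.41 and 2.74, positive without C42 replicate 3 or LA42 replicate 3 (0.14), and was 0.61 by limma-voom and 3.22 without both libraries, against -0.33. By edgeR 2.74 (without C42 replicate 3) and 3.22 were called (adjusted p = 0.0445 and 0.00589). In C42 against C18 ZPARMT023 turned from 0.089 to -2.98 without C42 replicate 3 (edgeR adjusted p = 0.0268). These calls follow from the omission and are not used as results. At 42 h ZPARMT0017 had -0.12 without LA42 replicate 2 and up to 1.84 without the 2 libraries numbered 3, and ZPARMT0022 had -0.56 to 0.091, positive without C42 replicate 3. The causes were not tested.

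Whether the replicate numbers pair the samples was not settled. Deviations of same-numbered libraries from their group means correlated at 0.209 and 0.314 at 18 h, and at 0.161, -0.0738 and 0.219 at 42 h. They were not compared with those of differently numbered libraries, so pairing is neither shown nor excluded. With the replicate block 7 genes were higher at 18 h and 8 at 42 h, ZPARMT0020 being lost at both (log2 fold changes 0.60 and 0.55), and ZPARMT030 was lost in LA42 against LA18 (0.54). With 6 to 35 counts of ZPARMT0022 and 2 to 122 of ZPARMT023, these genes allow only large differences to be seen.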
